A study of Bombus terrestris with 33 samples.

Results

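Colony C7 supplied 6 of the 17 Bombus terrestris (buff-tailed bumblebee) queens whose brains were sequenced before hibernation in a series of 33 queens. Its 6 queens, 3 FM and 3 SM, were set against the 11 FM and SM queens of colonies C2 and C3, with mating outcome as a term of the fit. FM queens (3 from C7, 3 from C2 and 3 from C3) had been offered males and failed to mate. SM queens (3 from C7, 2 from C2 and 3 from C3) had mated and were frozen 3 days later. All were adult females of commercial colonies, first given males at 5 days of age, and each library came from the brain of 1 queen. The labels give an estimated age with no unit, 6 to 24 for the C7 queens, 11 to 27 for the C2 and C3 queens and 91 to 102 for the 16 FR and SR queens. The other 16 queens were mated queens sampled after hibernation, in groups FR and SR that differed in whether ovaries had developed. They came from colonies C2, C3 and C9. None of those carried the label C7, so the colony could be compared before hibernation only.

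A bumblebee colony is usually headed by a lone founding queen, so the gynes (virgin sexual females) it rears are sisters. Because males are haploid, sisters with the same father also share his whole genome. Gynes of one colony share a nest, nurses and food while they develop as well. Inherited and nest effects on the brain cannot be told apart here, and neither can differences in the number of cells of a type and in RNA per cell. Since C7 is 1 colony, the p-values below set the queens of these 3 colonies against each other and say nothing about colonies at large.

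The features of the table are contigs, and none of their 10672 identifiers matched the 13398 genes of the reference table. They are therefore given without gene names, functions or sequences, and the labelled tissue was not checked against marker genes. The colony labels could not be checked either, since the counts hold no genotypes. Levels are given in CPM, the reads of a contig scaled to the total count of its library, and as contig lengths are not known, levels were compared between queens and never between contigs. Total counts of the 33 libraries ran between 42858092 and 61560882. FM replicate 6 of colony C3 stood apart from the other 16 queens before hibernation, with a score of 60.3 on the second principal component, against -16.4 to 13.9 in the others.

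The general make-up of the libraries was compared first, in a family of 7 measures with p-values adjusted over the 7. Total counts averaged 51900000 ± 6057000 in C7 queens (SD, n = 6) and 47960000 ± 3804000 in C2 and C3 queens (SD, n = 11; two-sided exact permutation p = 0.116, adjusted p = 0.408). The C7 libraries were the deeper ones among FM queens only, with 52151003 to 61560882 reads in C7 and 44596022 to 51356693 in the others. Among SM queens the difference, C7 minus C2 and C3, was -1599000 reads. The number of contigs with a read was 6940 ± 128 in C7 queens and 6907 ± 172 in the others (SD; exact permutation p = 0.686, adjusted p = 0.887). The 10 most read contigs took 13.5 ± 3.39% of reads in C7 queens and 12.6 ± 3.78% in the others (SD; exact permutation p = 0.647, adjusted p = 0.887). Estimated age averaged 14.7 ± 6.65 in C7 queens and 17.5 ± 4.63 in the others (SD; exact permutation p = 0.338, adjusted p = 0.789). The age difference, C7 minus C2 and C3, was -6.17 within FM queens and 1.0 within SM queens, and neither was tested by itself. The youngest queen, FM replicate 14 with an estimated age of 6, was of C7.

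Of the first 3 principal components of log2 CPM, the third set C7 queens apart from the rest. It held 8.60% of the variance, and C7 queens scored 13.8 ± 4.54 (SD, n = 6; 6.97 to 18.8), against -7.55 ± 6.995 in C2 and C3 queens (SD, n = 11; -19.9 to 0.580). No C7 queen overlapped with any other. The difference of 21.4 gave the smallest p that the exact permutation test allows for 6 against 11 queens (p = 8.08e-05, adjusted p = 0.000566 over the 7 measures). It was 25.3 within FM queens and 17.1 within SM queens. The components were computed from the same queens that were compared. C2 queens had a mean of -11.1 and C3 queens of -4.61 on this component.

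Components 1 and 2, with 22.2% and 19.1% of the variance, spread queens within each colony. On component 1 C7 queens averaged 1.80 ± 13.1 and the others -0.982 ± 22.9 (SD; exact permutation p = 0.786, adjusted p = 0.887). On component 2 the means were 1.26 ± 10.7 in C7 queens and -0.685 ± 21.6 in the others (SD; exact permutation p = 0.887, adjusted p = 0.887). The order of the components rested on FM replicate 6. Without it, component 2 became the one on which C7 differed, by 20.7 (exact permutation, adjusted p = 0.00350), and component 3 differed by 12.2 (exact permutation, adjusted p = 0.106).

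**Figure D1:**
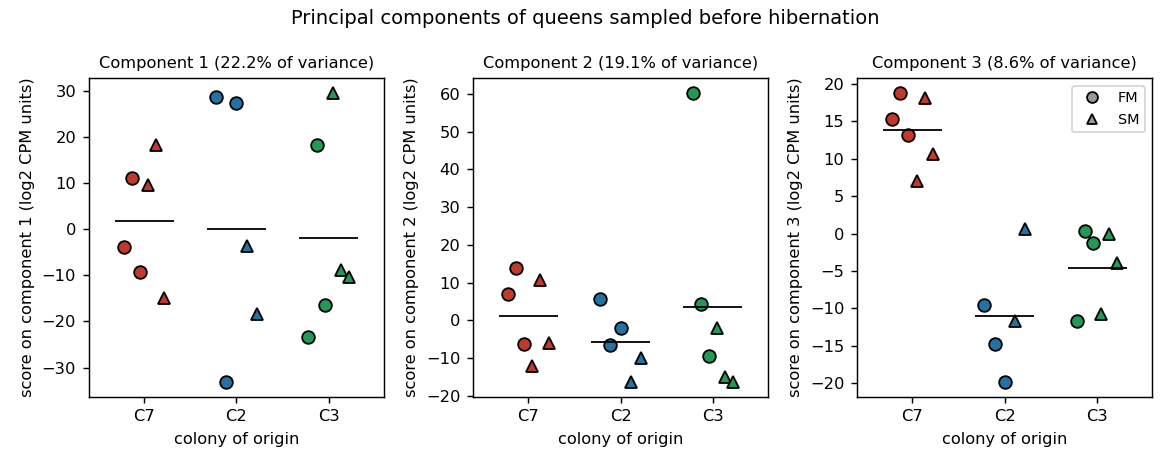
Scores of the 17 queens sampled before hibernation on the first 3 principal components of log2 CPM (vertical axes), by colony of origin (horizontal axis). Each point is a queen (circle FM, triangle SM) and each line a colony mean; on component 3 the C7 queens lie between 6.97 and 18.8, above all queens of C2 and C3, and FM replicate 6 of C3 stands at 60.3 on component 2.

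Distances between whole libraries overlapped between pairs from the same colony and pairs from different colonies. The distance used was the root mean square difference in log2 CPM over the tested contigs. Its median was 0.728 over the 15 pairs of C7 queens (0.521 to 0.810). Pairs of a C7 and a C2 queen had a median of 0.799, and pairs of a C7 and a C3 queen 0.762, while C2 and C3 queens lay 0.764 from each other. Within C2 and within C3 the medians were 0.732 and 0.775. For 4 of the 6 C7 queens the nearest of the other 16 libraries was a C7 queen. FM replicate 14 and SM replicate 25 were nearest to FM replicate 9 of C3. The other colonies also had such queens. FM replicates 9 and 10 and SM replicates 19 and 21 of C3 were nearest to a C3 queen. FM replicates 2, 4 and 5 of C2 were nearest to a C2 queen. The remaining C2 and C3 queens were nearest to a queen of another colony. Over the 2935 contigs with at least 5 CPM, the median SD of log2 CPM among queens was 0.184 in C7, against 0.194 in C2 and 0.214 in C3.

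Of the 5401 contigs tested over the 17 queens, edgeR called 8 different between C7 and the other colonies at an adjusted p under 0.05 (0.148%). In C7 queens 4 were higher (0.0741%) and 4 were lower (0.0741%), and 6 of the 8 differed by more than 2-fold. At an unadjusted p under 0.05 there were 368 contigs (6.81%). The median log2 fold change of all 5401 contigs was -0.01. For 4258 contigs (78.8%) the 95% interval of the fold change excluded a 2-fold difference in either direction. At 5 CPM or more this held for 2760 of 2935 contigs, where the median interval spanned a factor of 1.17 to either side.

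Contig5500 had the lowest p. Among C7 queens it stood at 8.67, 9.07 and 8.74 CPM in FM replicates 11, 14 and 15, and at 16.6, 15.2 and 10.1 CPM in SM replicates 23, 25 and 26. In C2 queens it ranged between 2.59 and 3.79 CPM (median 3.05, n = 5), and in C3 queens between 1.00 and 2.995 CPM (median 1.89, n = 6). Every C7 queen thus lay above all 11 others, and the SM queens of C7 above its FM queens. The C7 mean was 11.4 ± 3.57 CPM and that of C2 and C3 2.55 ± 0.909 CPM (SD). The log2 fold change was 2.22 ± 0.24 (± SE; adjusted p by edgeR = 0.000273). In a fit of the 17 queens with 3 colony levels it was called against each colony, with log2 fold changes of 1.88 against C2 (edgeR adjusted p = 0.00755) and 2.55 against C3 (edgeR adjusted p = 0.000139).

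Contig5505 was the second by p. It measured 22.4, 8.07 and 6.19 CPM in FM replicates 11, 14 and 15 of C7 and 11.6, 9.27 and 7.05 CPM in SM replicates 23, 25 and 26. C2 queens held 2.02 to 2.97 CPM (median 2.38) and C3 queens 2.33 to 4.22 CPM (median 2.73). The C7 range again lay wholly above the other one, and FM replicate 11 stood above the other C7 queens. Means were 10.8 ± 6.02 CPM in C7 and 2.74 ± 0.627 CPM in C2 and C3 (SD), a log2 fold change of 2.00 ± 0.23 (± SE; adjusted p by edgeR = 0.000392). Without FM replicate 11 or any other single library the log2 fold change stayed between 1.64 and 2.12. The fit with 3 colony levels gave 2.19 against C2 (edgeR adjusted p = 0.00755) and 1.86 against C3 (edgeR adjusted p = 0.0107). With the C2 queens left out of the fit altogether, the call against C3 was lost (1.86, edgeR adjusted p = 0.0773; up to 0.0773 over 17 alternatives).

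The other two higher contigs had fewer reads and are given without identifiers. The one of the largest fold change had 352, 23 and 472 reads in FM replicates 11, 14 and 15 of C7. It had 10, 21 and 482 reads in SM replicates 23, 25 and 26, and 0 to 8 reads in each C2 and C3 queen. In CPM these are 6.24, 0.441, 7.67, 0.211, 0.453 and 10.1 in the C7 queens, and 0 to 0.161 in the others. The groups did not overlap, but C7 queens fell into 3 high and 3 low ones, with both kinds in FM and in SM queens. The fitted log2 fold change of 6.74 ± 0.88 (± SE; adjusted p by edgeR = 0.00159) rests on the few reads of C2 and C3 queens. Only C7 queens had 10 reads or more, so the contig passed the filter on low counts through the group where it is high. With no filter it was called (edgeR adjusted p = 0.00364), and under the filters by mating group and of 1 CPM it was not tested.

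The fourth higher contig stayed under 2 CPM in every C7 queen. It had 0.621 to 1.86 CPM in C7 queens (median 1.28) and 0.0673 to 0.525 CPM in C2 and C3 queens, again with no overlap. Means were 1.22 ± 0.503 CPM in C7 and 0.276 ± 0.149 CPM in the others (SD), a log2 fold change of 2.22 ± 0.33 (± SE; adjusted p by edgeR = 0.00492).

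Contig8344 was the lower contig with the most reads. It stood at 9.36, 10.5 and 6.55 CPM in FM replicates 11, 14 and 15 of C7 and at 6.56, 7.15 and 8.00 CPM in SM replicates 23, 25 and 26. C2 queens had 11.5 to 16.6 CPM (median 14.5) and C3 queens 7.79 to 18.96 CPM (median 15.4). All C7 queens lay below the other queens except FM replicate 6 of C3, whose 7.79 CPM fell inside the C7 range. Means were 8.03 ± 1.62 CPM in C7 and 14.6 ± 3.10 CPM in C2 and C3 (SD), a log2 fold change of -0.81 ± 0.15 (± SE; adjusted p by edgeR = 0.0383). In the fit with 3 colony levels the log2 fold changes were -0.77 for C2 (edgeR adjusted p = 0.103) and -0.84 for C3 (edgeR adjusted p = 0.0571).

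The lower contig with the lowest p was in C7 queens at 0.910 to 1.03 CPM in FM and 1.37 to 1.92 CPM in SM queens. C2 and C3 queens held 2.16 to 5.98 CPM, so the ranges did not overlap. Its log2 fold change was -1.46 ± 0.26 (± SE; adjusted p by edgeR = 0.0298).

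The other two lower contigs had overlapping ranges. The one with the fewest reads had 2, 6, 2, 2, 0 and 0 reads in the C7 queens and 4 to 30 reads in each of the others. Means were 0.0375 ± 0.0421 CPM in C7 and 0.342 ± 0.176 CPM in C2 and C3 (SD), with a log2 fold change of -3.10 ± 0.57 (± SE; adjusted p by edgeR = 0.0383). It passed the filter on low counts through C2 and C3 queens alone, the group where it is high. That filter went by the groups compared and was chosen after a look at the data. With no filter the contig was called (edgeR adjusted p = 0.0334), and under the filters by mating group and of 1 CPM it was not tested. The fourth measured 0.842 to 2.03 CPM in C7 queens and 1.68 to 4.50 CPM in the others, and its log2 fold change was -0.93 ± 0.17 (± SE; adjusted p by edgeR = 0.0383).

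Contig9592 had the lowest p among contigs of at least 5 CPM that were lower in C7 and not called. It averaged 5.42 ± 1.30 CPM in C7 and 8.31 ± 1.83 CPM in C2 and C3 queens (SD; log2 fold change -0.56 ± 0.15 SE; adjusted p by edgeR = 0.257), which did not pass the test. DESeq2 called it (log2 fold change -0.56, adjusted p = 0.0224), as did edgeR over all libraries but FR replicate 32 (adjusted p = 0.0290), and over its 17 alternatives the adjusted p ran up to 0.826.

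**Figure D2:**
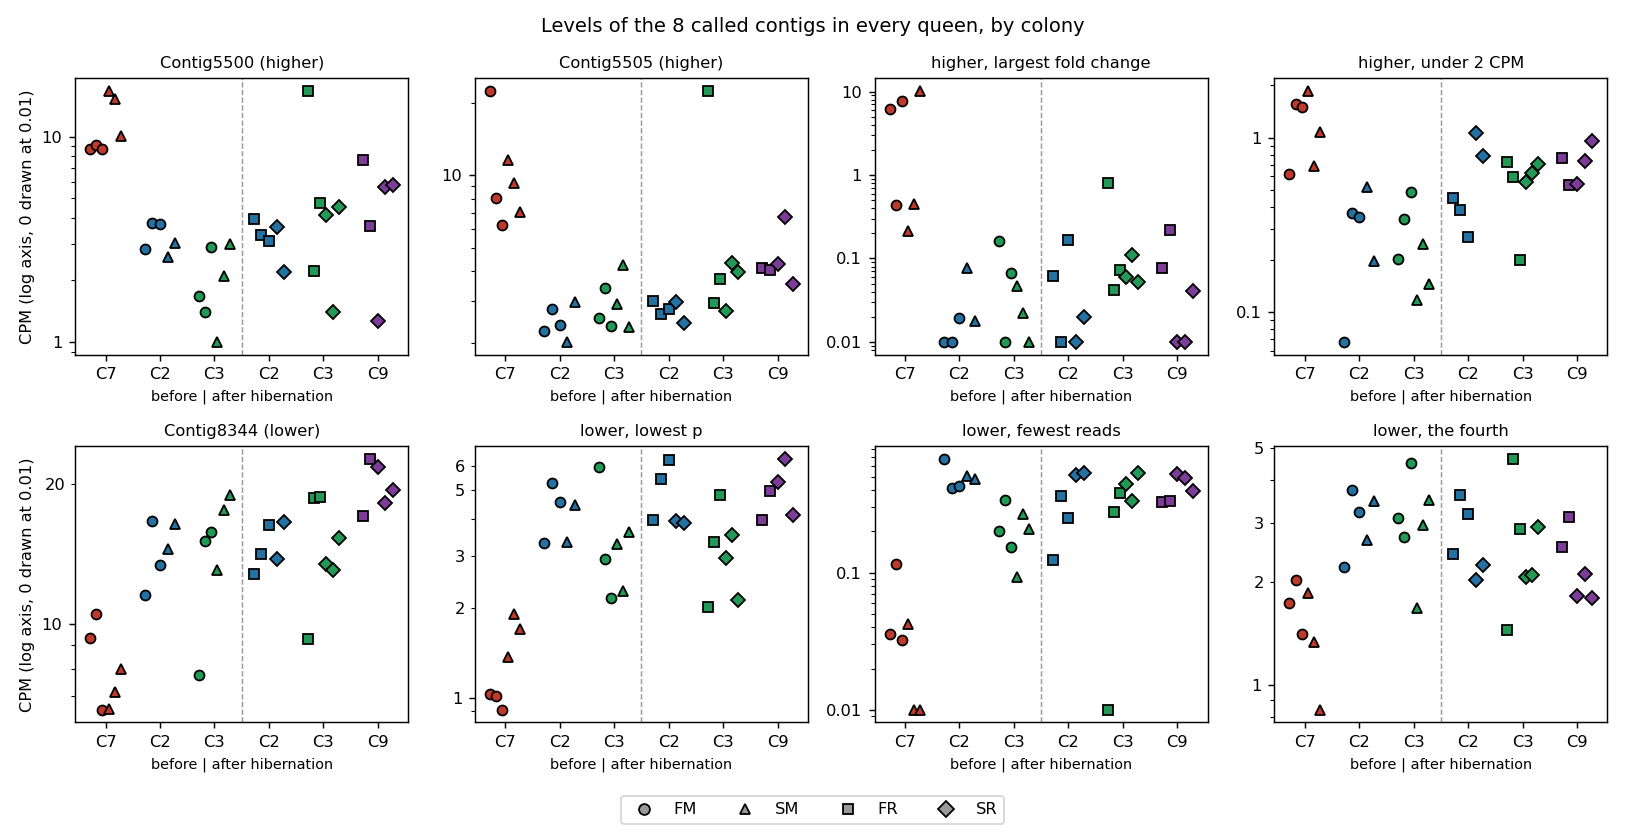
CPM on log axes (0 drawn at 0.01) of the 8 called contigs, upper panels higher and lower panels lower in C7. Each point is 1 of the 33 queens, placed by labelled colony, before hibernation left of the dashed line and after it on the right; all 4 upper panels show the 6 C7 queens above the C2 and C3 queens sampled before hibernation, and the green square near the C7 levels is FR replicate 32.

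The 4 higher contigs were called in all 17 fits that left out 1 library each, with adjusted p up to 0.0281 (edgeR). Of the 4 lower contigs, Contig8344 lost its call in 15 of the 17 fits, the contig with the fewest reads in 11, the fourth in 11 and the one of lowest p in 7, with adjusted p up to 0.146. Their log2 fold changes stayed between -0.91 and -0.74, -3.71 and -2.88, -1.02 and -0.81, and -1.62 and -1.36, in that order. Total calls fell to 4 without FM replicate 5 or SM replicate 17, and to 5 without FM replicate 15 or SM replicate 16, 21 or 26. All 4 lower calls were lost without any 1 of FM replicate 5, 11 or 15 or SM replicate 17 or 26. Calls beyond the 4 higher ones in those fits were of contigs not among the 8. Without colony C2 only Contig5500 was called. With estimated age as a covariate 6 of the 8 calls remained, 4 higher and 2 lower.

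In 11 contigs the ranges of C7 queens and of the other 11 queens did not overlap at all, 7 with C7 above (0.13% of the 5401 tested) and 4 with C7 below (0.0741%). Of these, 4 higher and 1 lower were among the calls already described. One of the 3 higher ones without a call ranged from 54.7 to 69.1 CPM in C7 queens and from 31.3 to 53.9 CPM in the others (log2 fold change 0.46, edgeR adjusted p = 0.297). Among the lower ones without a call, one reached at most 0.130 CPM in C7 queens and another at most 0.195 CPM. Both passed the filter on low counts through C2 and C3 queens alone, the group where they are high. The higher contig of the largest fold change passed it through C7 queens alone. For these contigs the lack of overlap is partly a result of the filter.

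Presence and absence of reads gave no contig that marked the colony. Of 8519 contigs with a read in the 17 libraries, 0 were read in all 6 C7 queens and in none of the others, and 0 had no read in C7 and reads in all 11 others. A further count gave 211 contigs with a read in some C7 queen and in no other queen, of which the most read had 30 reads in total. In 489 contigs no C7 queen had a read while some other queen did, with at most 65 reads in total. Such counts were not particular to C7. For C3, also 6 queens against 11, they were 202 (at most 65 reads) and 491 (at most 30 reads). For C2, 5 queens against 12, they were 141 (at most 6 reads) and 611 (at most 105 reads). The count of contigs read in all queens of a colony and in no others was 0 for C2 and 5 for C3. These counts cover reads at the depths given and do not show that a contig was absent from a brain.

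The 2 other colonies were then taken one at a time in a fit with 3 colony levels, where 5510 contigs were tested. These comparisons share queens, so their counts are set side by side and not matched. Between C7 and C2 edgeR called 10 contigs (0.181%), 6 higher (0.109%) and 4 lower (0.0726%) in C7, with 431 at an unadjusted p under 0.05 (7.82%). Ranges did not overlap for 27 contigs higher (0.49%) and 34 lower (0.617%) in C7 than in C2. Between C7 and C3 it called 12 (0.218%), 5 higher (0.0907%) and 7 lower (0.127%) in C7, with 393 unadjusted (7.13%). Ranges of C7 and C3 did not overlap for 11 higher (0.2%) and 17 lower (0.309%) in C7. Between C2 and C3, without any C7 queen in the contrast, it called 12 (0.218%), 4 higher (0.0726%) and 8 lower (0.145%) in C2, with 426 unadjusted (7.73%). For C2 and C3 the ranges did not overlap for 28 higher (0.508%) and 12 lower (0.218%) in C2. The counts depended on the tool and the libraries used: DESeq2 called 68 for C7 and C2, 60 for C7 and C3 and 38 for C2 and C3, and edgeR over all 33 libraries called 88, 36 and 129 for those pairs. Whether C7 lay further from the others than C2 and C3 from each other was not tested.

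FM and SM queens share no animal, so the C7 difference was next fitted in each by itself. In the 9 FM queens edgeR called 0 of 5512 contigs (0%), with 206 at an unadjusted p under 0.05 (3.74%). DESeq2 called 8 there, and limma-voom with quality weights called 0. The ranges of FM queens did not overlap for 39 contigs higher (0.708%) and 50 lower (0.907%) in C7. In the 8 SM queens edgeR called 3 of 5389 contigs (0.0557%), 1 higher (0.0186%) and 2 lower (0.0371%) in C7, with 272 at an unadjusted p under 0.05 (5.05%). Here ranges did not overlap for 40 contigs higher (0.742%) and 142 lower (2.63%) in C7.

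The single higher contig among SM queens was Contig5500, with 14.0 ± 3.44 CPM in C7 (SD, n = 3) and 2.35 ± 0.841 CPM in the others (SD, n = 5; log2 fold change 2.70 ± 0.30 SE; adjusted p by edgeR = 0.0140). In FM queens its log2 fold change was 1.72 ± 0.29 (± SE; adjusted p by edgeR = 0.222). There it measured 8.83 ± 0.214 CPM in C7 (SD, n = 3) and 2.72 ± 1.00 CPM in the others (SD, n = 6). Its SM call was lost in 4 of the 8 fits without 1 library, those without SM replicate 16, 21, 23 or 25, with adjusted p up to 0.0904 and log2 fold changes of 2.56 to 2.72 (edgeR).

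Contig1369 and Contig493, the 2 lower ones among SM queens, were named after a look at the values. Contig1369 had 0.907, 0.431 and 0.800 CPM in SM replicates 23, 25 and 26 of C7, against 6.53 to 10.9 CPM in the 5 other SM queens. Its log2 fold change was -3.52 ± 0.28 (± SE; adjusted p by edgeR = 0.00220). In FM queens it had 7.38, 1.09 and 1.12 CPM in C7 and 0.0404 to 7.57 CPM in the others, and the C7 values lay inside the range of the others.

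Contig493 had 1.33, 0.754 and 1.1997 CPM in the C7 SM queens, against 21.9 to 68.5 CPM in the other SM queens (log2 fold change -5.09 ± 0.47 SE; adjusted p by edgeR = 0.00705). In FM queens it had 23.8, 1.32 and 1.32 CPM in C7 and 0.0404 to 48.2 CPM in the others, again with C7 inside the range of the others. When the SM difference was taken from the fit of all 17 queens, neither Contig1369 nor Contig493 was called (edgeR adjusted p = 0.721 for both), with log2 fold changes of -3.52 and -5.09. Over 12 alternatives the log2 fold changes ran from -3.60 to -3.39 and from -5.18 to -4.92, and limma-voom did not call Contig493 (adjusted p = 0.0824). In both contigs FM replicate 11 was the high C7 queen, and FM replicate 6 of C3 was the lowest of all 17. Without SM replicate 23 or SM replicate 25 only Contig1369 was called among SM queens, and without SM replicate 26 the count was 10 (edgeR).

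Directions in the 2 separate fits were compared over the 5311 contigs tested in both. The direction was the same in 2947 (55.5%). Of the 206 contigs at an unadjusted p under 0.05 in FM queens, 196 were tested in SM queens, and 151 of them (77%) had the same direction there. Of the 272 in SM queens, 265 were tested in FM queens and 192 (72.5%) had the same direction. The log2 fold changes of the FM and SM fits were correlated with r = 0.322 (Pearson) and rho = 0.199 (Spearman) over the 5311 contigs, given as a description, since contigs of a library share its depth and composition.

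Of the 5311 contigs tested in both fits, 36 had an unadjusted p under 0.05 in both with the same direction, 12 higher and 24 lower in C7. All 8 contigs called over the 17 queens were among them, and those calls used the same queens. The log2 fold changes of the 12 ran between 0.30 and 6.78 in FM and between 0.24 and 6.70 in SM queens. Those of the 24 ran between -3.20 and -0.35 in FM and between -4.14 and -0.35 in SM queens.

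**Figure D3:**
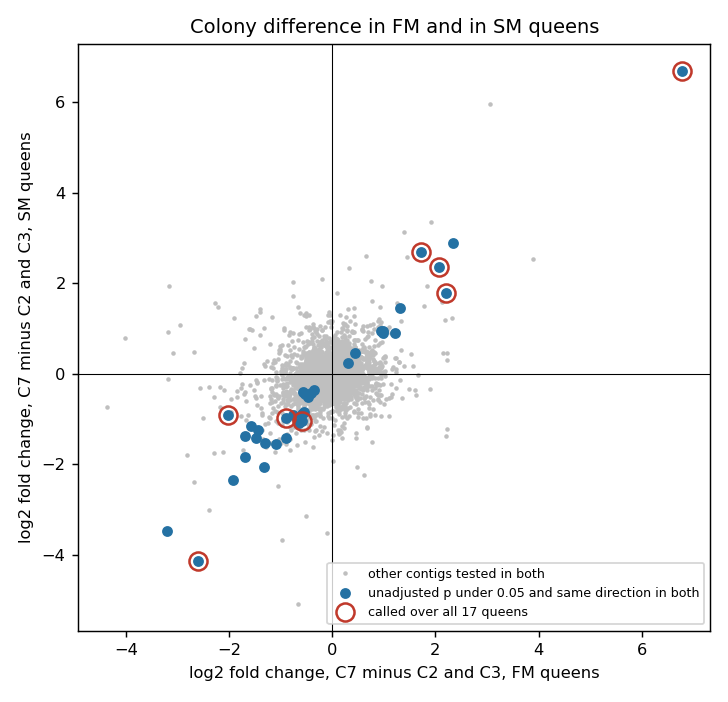
Log2 fold change of C7 minus C2 and C3 in FM queens (horizontal axis) and in SM queens (vertical axis), with 1 point for each of the 5311 contigs tested in both. Blue points are the 36 contigs with an unadjusted p under 0.05 and the same direction in both, and red rings mark the 8 contigs called over all 17 queens, which lie at the upper right and lower left.

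Whether the C7 difference depended on mating outcome was tested as an interaction, the SM minus FM difference in C7 minus that in C2 and C3. Of 5714 contigs edgeR called 0 (0%), with 121 at an unadjusted p under 0.05 (2.12%). DESeq2 and limma-voom also called 0, with 143 and 248 unadjusted. The contigs of at least 5 CPM with the lowest p are described by their values alone. Contig8904 had an interaction of 0.67 on the log2 scale, Contig4857 of 0.61, Contig7347 of -0.55 and Contig9195 of -1.43 (edgeR adjusted p = 1.00 for each), so none passed. Contig1369 and Contig493 had interactions of -3.43 and -4.44 (edgeR adjusted p = 1.00), so their C7 difference was not shown to depend on mating outcome. For contigs of at least 5 CPM the median 95% interval of the interaction spanned a factor of 1.38 to either side.

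The 16 FR and SR queens took no part in choosing these contigs, and each was placed by whether its log2 CPM lay nearer to the C7 mean or to the mean of C2 and C3 before hibernation. Over the 36 contigs, FR replicate 32, which the labels give to colony C3, lay nearer to C7 in 29 (80.6%). The other 15 queens did so in 2 to 13 of the 36 (5.56% to 36.1%). Over all 5401 tested contigs the share was 49.6% in FR replicate 32 and 38.1% to 48.4% in the other 15. This queen was singled out after its values were seen. The 36 include contigs that had passed the filter on low counts through only the group where they are high. The count was not repeated without those contigs.

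FR replicate 32 lay nearer to C7 in all 8 called contigs and inside the C7 range in 5 of them, against 0 to 3 and 0 to 2 of the 8 in the other queens. Among the 8 are the higher contig of the largest fold change and the lower contig with the fewest reads. Each had passed the filter on low counts through only the group where it is high, and the counts were not repeated without them. Contig5500 stood at 16.7 CPM in FR replicate 32, and the other 15 had 1.26 to 7.69 CPM. Contig5505 stood at 22.5 CPM, against 2.43 to 6.73 CPM. Both exceeded the highest C7 value. Contig8344 stood at 9.30 CPM, inside the C7 range, where the other 15 had 12.8 to 22.6 CPM.

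The higher contig of the largest fold change had 0.794 CPM in FR replicate 32, against 0 to 0.222 CPM in the other 15 queens. The contig with the fewest reads had 0 reads there and at least 6 reads in each of the others. The fourth higher contig had 0.726 CPM, inside the 0.200 to 1.07 CPM of the other 15. The other C3 queens after hibernation, 2 FR and 3 SR, lay nearer to C7 in 3 to 10 of the 36 contigs. In 29 of the 36 contigs FR replicate 32 thus lay nearer to the C7 mean than to the joint mean of C2 and C3. Its nearness to C3 alone was not measured. The counts hold no genotypes, so whether the label is right was not tested, and the label was kept as given. FR replicate 32 entered none of the main comparisons above, which hold FM and SM queens alone. It did enter the alternative fits over all 33 libraries, under its label C3.

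**Figure D4:**
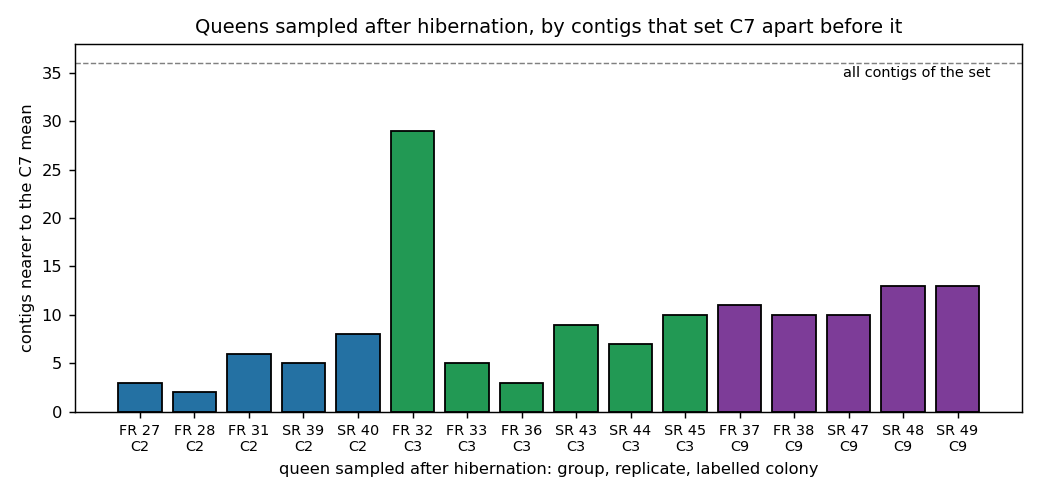
Number of contigs, of the 36 with an unadjusted p under 0.05 and the same direction in FM and in SM queens, in which each queen sampled after hibernation lay nearer to the C7 mean than to the mean of C2 and C3 (vertical axis). Each bar is a queen, labelled with group, replicate and colony and coloured by colony; FR replicate 32 reaches 29 of 36 (dashed line) and the other 15 queens 2 to 13.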

How the data were processed

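Poly(A) RNA from single brains was sequenced on Illumina instruments after TruSeq library preparation, per the labels' protocols. Read counts as deposited by the authors, unnormalized, cover 10672 contigs (1799 with no read), and 0 columns belonged to other samples. Tools listed in the submitters' processing notes are TopHat, SAMtools, FastQC and edgeR, with no versions. Which build, annotation and counter were used is not given in the sources used here. Deposited tables of scaled and clustering values were not used here.

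Groups and colonies came from the labels. Each library is a separate queen, and queens of a colony share their source. No pair of the 17 libraries was a duplicate: chi-square over degrees of freedom was 137 or more in all 136 pairs, for contigs with a mean count over 50. Replicate numbers are not shared between groups.

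Counts were filtered with filterByExpr by the groups compared (minimum count 10), scaled by TMM (factors 0.838 to 1.14) and tested with edgeR's robust quasi-likelihood test (version 4.0.16, R 4.3.3), with Benjamini-Hochberg adjustment over all tested contigs and calls at an adjusted p of 0.05. The contigs tested held 99.986% of reads. The fits were run on simulated counts with known changes, to check the code. Counts were drawn independently for each queen and contig, so effects shared within a colony were not simulated. Printed CPM use total counts without TMM. SE is the log2 fold change divided by the root of F. Principal components were taken from log2 CPM (prior count 2), and library measures two-sided exact permutation tests (scipy 1.17.1). Alternatives included DESeq2 1.42.0 and limma 3.58.1.

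The comparison and the lists were chosen with earlier results of these data known. The filter by groups compared replaced one by mating group after a look at the data. The naming rule took, per comparison, at most 2 identifiers higher and 2 lower: called contigs of at least 5 CPM with the largest fold change and no overlap, then with overlap allowed, then the lowest p as values only. For the interaction it took the lowest p. The edgeR tests and intervals take in the spread among queens as well as sampling error of reads. Intervals are at 95%.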

Additional observations from a re-analysis of the deposited data

Results flagged for a closer look

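A check for a single queen far from the rest of its colony or group marked 13 of 82 sets of values (15.85%). It divides the gap to the nearest queen by the range of the set and compares it with Dixon's 95% critical value. By construction, chance marks about 1 in 20 normally distributed sets, and the sets share queens, so the marks are not independent. No explanation was tested.

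Among the C7 queens, 5 contigs each had 1 queen far above the others. FM replicate 11 had 22.4 CPM of Contig5505 (the next C7 queen 11.6), 7.38 CPM of Contig1369 (next 1.12) and 23.8 CPM of Contig493 (next 1.33). FM replicate 14 had 3063 CPM of Contig9195 (next 1201) and 0.115 CPM of the lower contig with the fewest reads (next 0.0422), which are 6 reads.

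In the other colonies before hibernation, FM replicate 2 of C2 held 21.2% of its reads in the 10 most read contigs, against 10.5% in the next C2 queen. FM replicate 6 of C3 scored 60.3 on the second component, against 4.38 in the next C3 queen. SM replicate 16 of C2 had 0.0778 CPM of the higher contig with the largest fold change, against 0.0195 CPM in the next.

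After hibernation, FR replicate 32 was the highest FR queen for Contig5500 with 16.7 CPM (next 7.69), for Contig5505 with 22.5 CPM (next 4.12) and for the higher contig of the largest fold change with 0.794 CPM (next 0.222). Among SR queens, replicate 48 had 6.73 CPM of Contig5505 (next 4.32), and replicate 45 had 2.92 CPM of the fourth lower contig (next 2.26).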

How the results depend on the processing

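Contig5500 was called under all 17 alternatives of the C7 comparison (edgeR, DESeq2 or limma-voom adjusted p up to 0.0203) and Contig5505 under all but the one without colony C2 (edgeR adjusted p = 0.0773). No log2 fold change of the 8 called contigs changed sign where it was tested. Contig8344 lost its call under 7 alternatives (edgeR, DESeq2 or limma-voom adjusted p up to 0.229). The fourth lower contig lost it under 9 (same tests, adjusted p up to 0.220). The lower contig of lowest p and the one with the fewest reads each lost it under 1. The higher contig of the largest fold change and the fourth higher contig each lost it under 2. Of the 17 alternatives, 3 of the contigs were tested under 15, 16 and 14, since filters on low counts removed them under the rest. The cause of the moves below was not tested, except that a stricter filter tests fewer contigs. Contigs with few reads and the 3 C7 queens per mating outcome limit what could be detected.

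Against the 8 calls of C7 minus C2 and C3, DESeq2 gave 41, limma-voom 16, a filter of 1 CPM 3, all 33 libraries 27, and leaving out colony C2 1. Filtering by mating group gave 4 and all libraries but FR replicate 32 gave 38; both were added after seeing the data, here and below. Leaving out each library gave 4 to 11.

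For C7 minus C2 (10 calls) DESeq2 gave 68, limma-voom 16, the 1 CPM filter 5, a test against 1.2-fold 6, filtering by mating group 5, all 33 libraries 88, all but FR replicate 32 76, and leaving out each library 3 to 12. For C7 minus C3 (12 calls) DESeq2 gave 60, limma-voom 29, upper-quartile scaling 20, the 1 CPM filter 3, filtering by mating group 6, all 33 libraries 36, all but FR replicate 32 62, and leaving out each library 2 to 15. For C2 minus C3 (12 calls) DESeq2 gave 38, the 1 CPM filter 7, all 33 libraries 129, all but FR replicate 32 127, and leaving out each library 2 to 13.

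In FM queens (0 calls) DESeq2 gave 8 and the effect taken from the 17 libraries 3. In SM queens (3 calls) DESeq2 gave 27, total counts without scaling 7, no filter 7, and leaving out each library 1 to 10. The interaction stayed at 0 calls under all 11 alternatives and 17 left-out libraries. The C7 minus C2 and C3 difference in the percent of reads in the 10 most read contigs, 0.884 over all queens, lay between -0.305 (without SM replicate 25; exact permutation, adjusted p = 0.949) and 1.74 (without FM replicate 2) with a library left out. No paired analysis was possible because the groups share no replicate number.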
